A study of Mus musculus with 12 samples.

Results

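The genes described here are 8 epithelial genes of the embryonic mesonephros, Pax2, Pax8, Cdh16, Lhx1, Gata3, Wnt9b, Cdh1 and Epcam. They were chosen by name as duct and tubule genes, and each was found through the accession that the array gives for its probe. Each had exactly 1 probe on the array, and all 8 were among the 19178 features tested. The study compared Kdm3a (Jmjd1a) mutant with control mouse embryos at embryonic day 11.5, when the gonad becomes a testis or an ovary. The 12 arrays fell into 4 groups of 3 single embryos, which were mutant males, control males, mutant females and control females. Mutants carried the mutant Jmjd1a allele in homozygous form and controls in heterozygous form, so the controls also had a mutant copy, and the embryos carried the Nr5a1/CD271 transgene. Cells were dissociated from gonads together with mesonephroi, about 200000 per embryo, and about 40000 were pulled out with magnetic beads through CD271, which the Nr5a1 regulatory sequence drives in gonadal somatic cells. The purified cells could therefore still hold cells of the attached mesonephros, and in such bulk samples fewer cells of a type and less RNA per cell cannot be told apart.

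The mesonephros is the transient kidney that lies beside the gonad. Its Wolffian (nephric) duct and its tubules are epithelia, held together by adhesion molecules such as E-cadherin. Pax2, Pax8, Lhx1 and Gata3 encode transcription factors needed to make and extend the duct, and Wnt9b is the signal by which the duct induces tubules in the surrounding mesenchyme.

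Levels are given on a log2 scale on which 0 is the 75th percentile of that array's spots, so a negative level lies below it, and levels of different probes are not compared. A change is the difference of 2 group means on that scale, with its standard error from a limma fit over all 12 arrays. The p-values were adjusted over all 19178 features, and the threshold was an adjusted p of 0.05. Of the spots, 58.0% to 65.2% were well above background on each array, and the 75th percentile of the signal was 142.9 to 299.5. The array number, 3 per group, limits the precision. Kdm3a, the targeted gene, was 3.86-fold lower in mutant than in control males (limma adjusted p = 9.0e-05) and 4.84-fold lower in mutant than in control females (limma adjusted p = 4.2e-05). Its second probe was detected above background in every control and in none of the mutants. The sources used here do not say whether the mutation deletes the part of Kdm3a that these probes read. Nr5a1, whose regulatory sequence drives the CD271 label, and Wt1, another gene of gonadal somatic cells, were among the features tested. They averaged -1.10 and 4.54 in mutant males, against -1.22 and 4.35 in control males. Wt1 does not define the labelled cells, and the purity of the cells was not tested.

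In mutant males, 6 of the 8 genes had higher levels on every array than on any control male array, with means 1.83-fold to 3.71-fold higher. These were the adhesion genes Cdh16, Cdh1 and Epcam, the duct signal Wnt9b and the transcription factors Gata3 and Lhx1. None of the 8 passed the threshold after adjustment over all features. Pax2 and Pax8 had overlapping ranges in mutant and control males. In females no gene of the 8 separated mutants from controls.

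Cdh16 encodes kidney-specific cadherin, an adhesion protein of renal and duct epithelium (probe A_51_P287100). Its levels were 1.74, 3.11 and 2.00 in mutant males, against -0.06, 0.99 and 0.61 in control males. All mutant males were higher than all control males, and the change of 1.77 ± 0.53 had a limma adjusted p of 0.258. In mutant females Cdh16 stood at 2.30, -0.03 and 1.46, against 1.59, 1.99 and 1.61 in control females. Mutant female 1 was above the control females and mutant females 2 and 3 were below them. Mutant female 2 was near the lowest control male.

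Cdh1, which encodes E-cadherin, the adhesion protein of epithelial junctions, gave the smallest adjusted p of the 8 genes in males (probe A_51_P137336). Its levels were -2.93, -2.38 and -3.10 in mutant males, against -4.98, -4.39 and -4.18 in control males. The groups were more than 1 log2 unit apart, a change of 1.71 ± 0.34 (limma adjusted p = 0.0707). The probe was well above background on all 3 mutant male arrays but on 1 of the 3 control male arrays, so the lower levels of the control males rest partly on signal near background. In mutant females the levels were -2.36, -3.88 and -3.13, against -3.40, -3.36 and -3.19 in control females. The mutant females lay on both sides of the control females.

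Epcam encodes an adhesion molecule found on most simple epithelia (probe A_52_P447944). Its levels were -1.35, -0.60 and -1.07 in mutant males, against -2.12, -1.99 and -1.89 in control males, with no overlap and a change of 0.99 ± 0.27 (limma adjusted p = 0.209). In mutant females it stood at -0.96, -2.11 and -1.83, against -1.48, -1.33 and -1.69 in control females. As for the cadherins, mutant female 1 was the highest of the females and mutant female 2 the lowest.

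Wnt9b, the inductive signal of the duct, had the largest mean change of the 8 genes in males (probe A_52_P15377). Its levels were -1.52, -0.71 and -1.25 in mutant males, against -3.42, -2.88 and -2.85 in control males. The change was 1.89 ± 0.49, or 3.71-fold, with a limma adjusted p of 0.182. In mutant females the levels were -0.76, -3.09 and -2.34, against -2.53, -1.78 and -1.67 in control females, so that 1 mutant female was above all controls and another was below them all.

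Gata3 encodes a zinc-finger factor that acts in the duct upstream of Ret (probe A_52_P546363). Its levels were -0.93, -0.35 and -0.73 in mutant males, against -1.75, -1.63 and -1.67 in control males. The control males lay close together, and the change of 1.01 ± 0.22 had a limma adjusted p of 0.0958. In mutant females it stood at -0.19, -1.06 and -0.94, against -1.12, -1.08 and -0.91 in control females. The values of mutant females 2 and 3 lay within the control range.

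Lhx1 encodes a LIM homeodomain factor of the early nephric duct (probe A_51_P452119). Its levels were -2.99, -2.67 and -3.32 in mutant males, against -4.37, -3.50 and -3.72 in control males. The groups did not overlap, but mutant male 3 and control male 2 were close, and the change of 0.87 ± 0.44 had a limma adjusted p of 0.428. In mutant females the levels were -2.45, -4.54 and -3.48, against -3.43, -3.85 and -3.21 in control females. The probe was not well above background on control male 1.

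Pax2 and Pax8 encode paired-box factors that act together in founding the nephric duct. Pax2 (probe A_51_P375526) stood at -4.33, -4.00 and -4.23 in mutant males, against -4.46, -3.87 and -4.53 in control males. In mutant females it stood at -4.83, -4.68 and -4.57, against -4.50, -4.51 and -4.77 in control females. All 4 groups were dim, and the probe was not well above background on control male 1 and control female 1. Pax8 (probe A_51_P381297) stood at -2.53, -3.54 and -3.78 in mutant males, against -3.13, -4.07 and -3.28 in control males. In mutant females it stood at -3.67, -3.57 and -3.92, against -3.84, -3.66 and -3.32 in control females. The changes in males were 0.10 ± 0.18 for Pax2 (limma adjusted p = 0.765) and 0.21 ± 0.32 for Pax8 (limma adjusted p = 0.725).

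**Figure D1:**
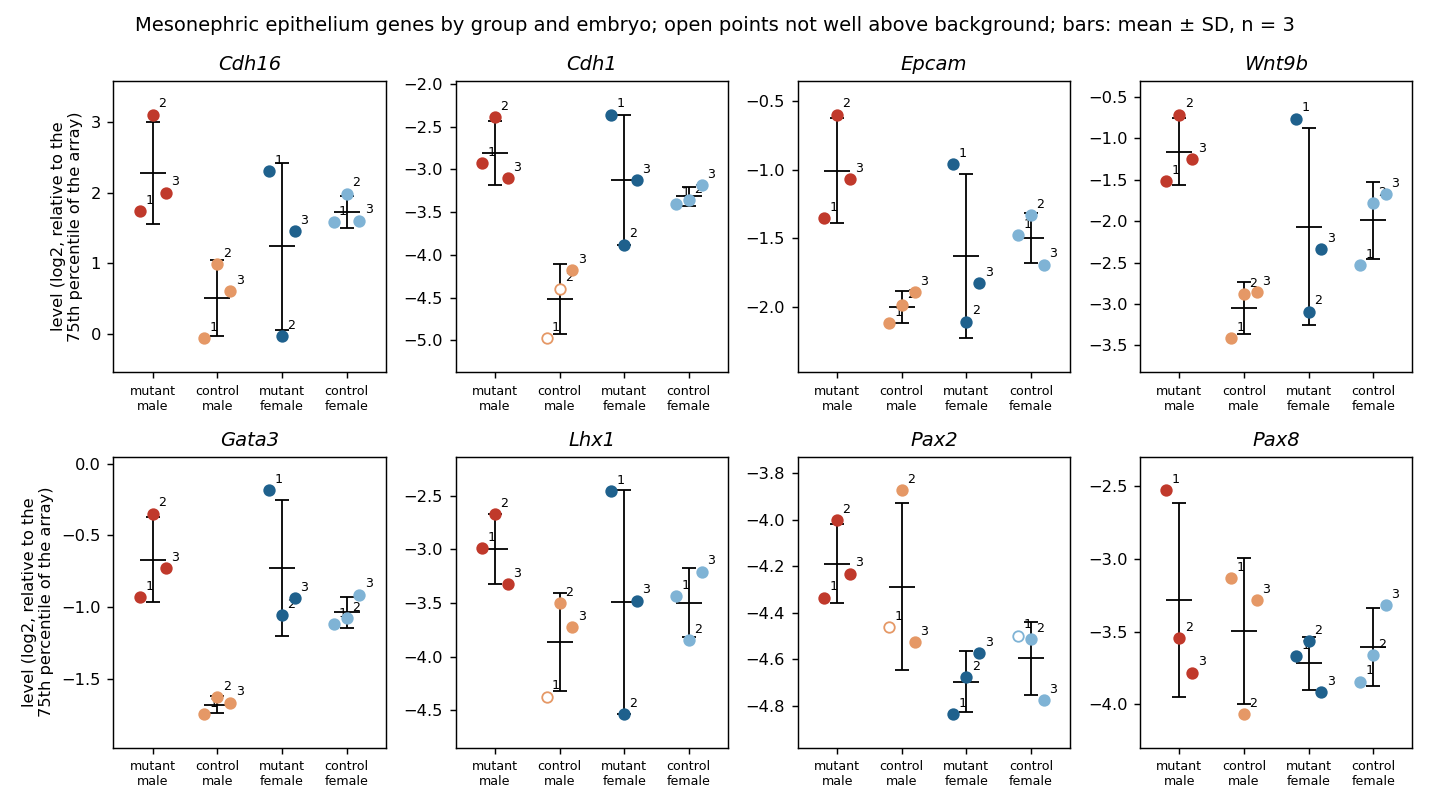
Level of each of the 8 genes on each of the 12 arrays, in log2 units above or below the array's 75th percentile, by group; points are single embryos numbered by replicate, open where the probe was not well above background, and the bars mark the mean and SD (n = 3). For 6 genes the 3 mutant males lie above the 3 control males, and the mutant females are spread over a wider range, 2.34 log2 units for Cdh16.

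Of all features, 0.469% passed the adjusted threshold in males (90 of 19178), and 0 of the 8 genes did. The groups did not overlap, mutants higher, for 8.38% of all features and for 6 of the 8 genes. At an unadjusted p of 0.05, 5.08% of all features and 5 of the 8 genes (Cdh1, Gata3, Wnt9b, Epcam and Cdh16) passed and were higher. All 8 changes were positive, with a median of 1.00, while the median over all features was -0.05. These counts describe 8 genes that were named with earlier results of the same arrays known, so they carry no test of their own. The adjusted calls depended on single arrays and on the scaling. Without mutant female 1, Cdh1, Gata3 and Wnt9b passed in males (limma adjusted p = 0.0324, 0.0286 and 0.0374), since that array enters the pooled spread. Cdh1 alone passed without mutant female 2 (0.0392) or with quantile normalization (0.0415). With normexp background correction and its offset of 50, which compresses dim probes, the male change was 0.22 for Cdh1, 0.06 for Lhx1, 0.49 for Epcam, 0.53 for Gata3, 0.78 for Wnt9b and 1.52 for Cdh16, and those of Pax2 and Pax8 were -0.13 and -0.05.

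In females the changes ranged from -0.48 for Cdh16 to 0.31 for Gata3. Their median was -0.09, and 3 were positive and 5 negative. None of the 8 genes passed the adjusted threshold in limma, which 0.355% of all features passed, and none passed an unadjusted p of 0.05, against 10.4% of all features. None had groups that did not overlap, against 5.33% of all features with mutants higher and 7.41% with mutants lower. Cdh16 had a change of -0.48 ± 0.53 (limma adjusted p = 0.65) and Wnt9b of -0.07 ± 0.49 (limma adjusted p = 0.943). These p-values do not show that mutant and control females had equal levels.

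The difference between the mutant effect in males and that in females was tested directly. It was positive for all 8 genes, with a median of 1.00. It was 2.26 ± 0.75 for Cdh16, 1.96 ± 0.69 for Wnt9b, 1.52 ± 0.49 for Cdh1, 1.13 ± 0.39 for Epcam and 0.70 ± 0.31 for Gata3. These 5 passed an unadjusted p of 0.05, as did 701 of the 19178 features, or 3.66%, and 1.85% with a positive difference. With normexp the values were 0.26 for Cdh1, 0.90 for Wnt9b, 0.61 for Epcam and 0.34 for Gata3, and with the slide as a block Epcam gave 0.59. No feature passed after adjustment in limma, the 8 genes included, whose adjusted p was 0.9999 each.

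Control males had the lowest mean of the 4 groups, and mutant males the highest, for Cdh16, Cdh1, Epcam, Wnt9b, Gata3 and Lhx1. For Cdh16, Epcam and Wnt9b the mean of the mutant females was below that of the control females, and for Cdh1, Gata3 and Lhx1 it was above, in each case with overlapping ranges. In control males 5 of the 8 genes were lower on every array than in any control female, against 5.9% of all features. They were Cdh16 (-1.22 ± 0.53), Cdh1 (-1.20 ± 0.34), Wnt9b (-1.06 ± 0.49), Gata3 (-0.64 ± 0.22) and Epcam (-0.50 ± 0.27). Cdh1 was well above background on only 1 of the 3 control male arrays, and with normexp its value was 0.056, while Gata3 gave -0.27, Wnt9b -0.30 and Epcam -0.14. No slide held both control males and control females. With the slide as a block, which then links them only through the mutants, the values were -0.46 for Cdh16, -0.95 for Cdh1, -0.36 for Wnt9b, -0.19 for Gata3 and -0.08 for Epcam. None passed the adjusted threshold, which 0.177% of all features passed. Cdh16, Cdh1 and Gata3 passed an unadjusted p of 0.05 and were lower, as were 4.41% of all features, and the limma adjusted p of Cdh1 was 0.335. The comparison shares its control males with that of the mutant males. The means of all 8 genes were higher in mutant males than in mutant females, by 0.06 for Gata3 to 1.04 for Cdh16, and only Pax2, at 0.51 ± 0.18, had groups that did not overlap, against 14.2% of all features. None of the 8 passed the adjusted threshold there (limma), which 0.13% of all features passed, and Pax2 and Epcam passed an unadjusted p of 0.05, against 7.13% of all features with mutant males higher. These differences rested partly on single mutant females. Without mutant female 2, Cdh16 gave 0.40, Wnt9b 0.39, Lhx1 -0.028, Cdh1 -0.062 and Gata3 -0.11, and Gata3 was also below 0 without mutant female 3. Without mutant female 1, Cdh16 gave 1.57, Wnt9b 1.56, Lhx1 1.01, Cdh1 0.70 and Gata3 0.33.

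**Figure D2:**
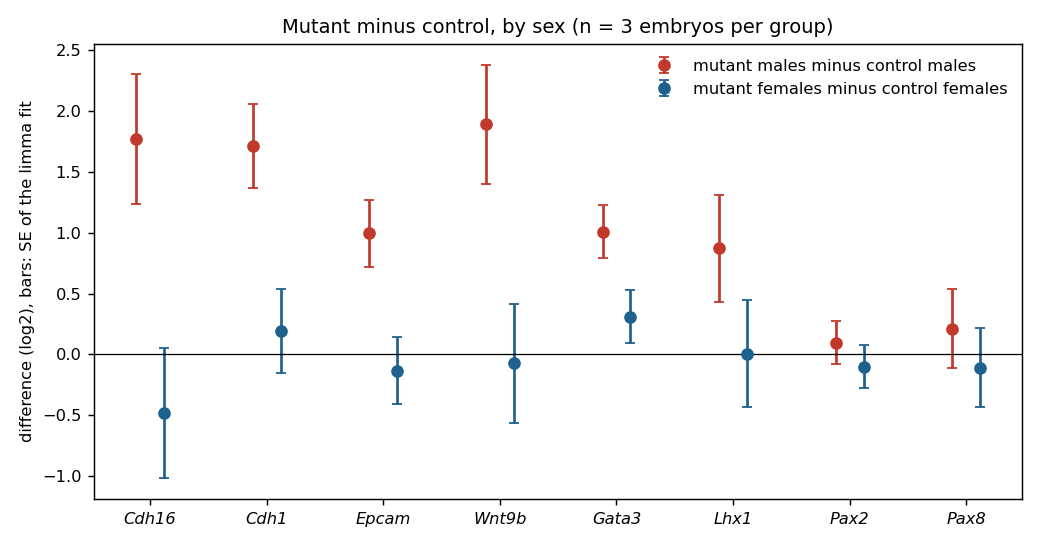
Change of each of the 8 genes in mutant against control males and in mutant against control females, in log2, with bars for the standard error from limma. In males 6 genes lie between 0.87 and 1.89, while in females all 8 lie between -0.48 and 0.31.

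The arrays lay on 3 slides, each scanned once. Slide 1 held mutant male 1 with the 3 control males, slide 2 held control females 1 and 2 beside mutant males 2 and 3, and slide 3 carried the 3 mutant females and control female 3. Within slide 1, mutant male 1 exceeded the mean of the control males by 1.59 for Cdh1, 1.53 for Wnt9b, 1.23 for Cdh16, 0.88 for Lhx1, 0.75 for Gata3 and 0.65 for Epcam. These within-slide values had the sign of the full comparison for all 6 genes but rest on 1 mutant array. For Pax2 the value was -0.05 and for Pax8 0.97, where mutant male 1 was the highest array. Within slide 3 the mutant females differed from control female 3 by -0.40 for Pax8 to 0.19 for Gata3. Slide 2 held no mutant and control of the same sex.

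Cdh1, Lhx1 and Pax2 were each printed as 10 spots on every array, which gives the error of reading a probe but not that of dissection, amplification or hybridisation, since the spots of an array share these steps. The standard deviation between embryos within groups was 0.47 for Cdh1 and 0.61 for Lhx1, against 0.25 and 0.17 between spots of an array. For Pax2 it was 0.22 between embryos and 0.30 between spots. Set against the standard error of a mean of 10 spots, the deviation between embryos was 6.09 times as large for Cdh1, 11.4 times for Lhx1 and 2.39 times for Pax2. Within groups Cdh16, Wnt9b and Lhx1 were among the more variable features, since only 1.75%, 2.39% and 3.64% of all features had a larger standard deviation. The median over all features was 0.24.

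**Figure D3:**
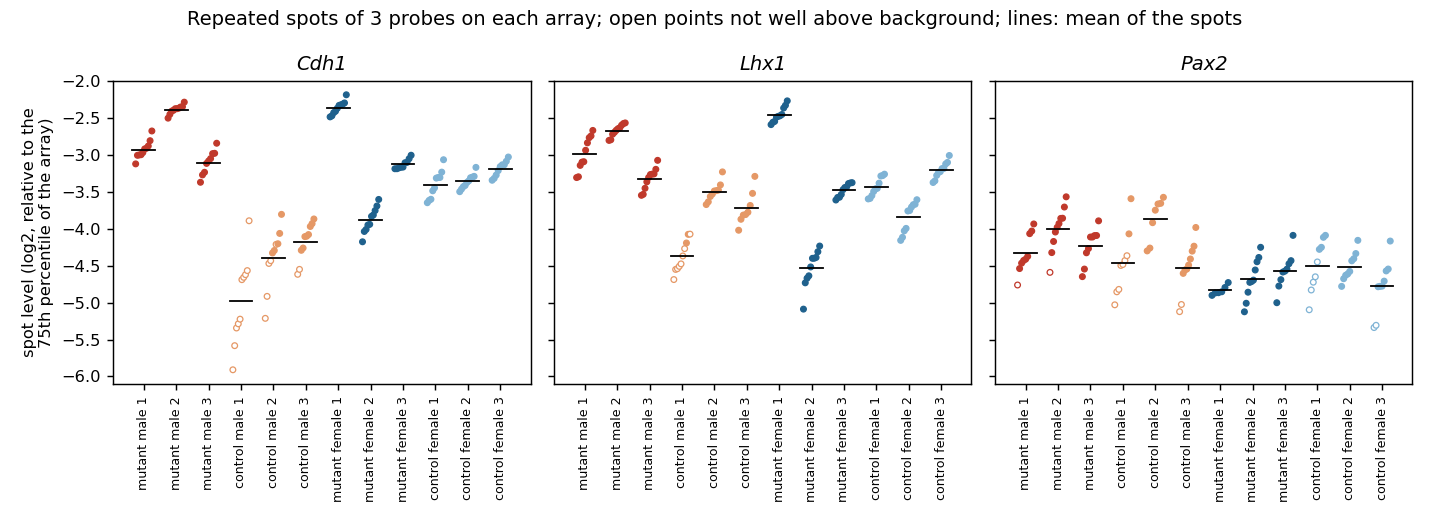
Single-spot levels of the 3 genes that the array carries as 10 spots each, Cdh1, Lhx1 and Pax2, on the 12 arrays, in log2 units above or below the array's 75th percentile. For Cdh1 and Lhx1 the standard deviation between embryos of a group (0.47 and 0.61) is above that between spots (0.25 and 0.17), and for Pax2 it is below it (0.22 and 0.30).

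For Cdh16, Wnt9b, Lhx1, Cdh1, Epcam and Gata3 the range of levels was widest among the mutant females. For Pax2 and Pax8 it was narrowest there, at 0.26 and 0.35. Mutant female 1 exceeded mutant female 2 by 2.34 for Cdh16, a 5.05-fold difference, by 2.33 for Wnt9b, by 2.08 for Lhx1, by 1.52 for Cdh1, by 1.15 for Epcam and by 0.87 for Gata3. Of all features, 0.475% differed as much or more in that direction as Cdh16, and 3.52% as much as Gata3. These embryos were picked as the highest and the lowest mutant female for these genes, so the shares are descriptions and not tests. Pax2 and Pax8 did not follow, at -0.16 and -0.10. Both embryos carry the same labels and lay on the same slide. Markers of other cell types differed between the same embryos: the mean centred level of the erythroid list was 1.84 in mutant female 1 and -1.44 in mutant female 2, that of the macrophage list 0.69 and -1.92, and that of the endothelial list 0.43 and -1.24. The mesenchyme list stood at 0.80 in mutant female 1 and -0.23 in mutant female 2. The gonadal somatic list went the other way, at -0.09 and 0.34. The part of these other cell types in the spread of the 8 genes was not tested.

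The 6 genes varied together from embryo to embryo, while Pax2 and Pax8 did not vary with them. Over the 12 arrays the 15 pairs among Cdh16, Cdh1, Epcam, Wnt9b, Gata3 and Lhx1 had Pearson correlations of 0.73 to 0.95, with a median of 0.86, and Spearman correlations of 0.78 to 0.99. With each level set relative to its group mean, the Pearson correlations were 0.72 to 0.94, close to the values before that step. The Spearman correlations were lower than before it, at 0.57 to 0.92. Without that step, leaving out the 2 arrays farthest from the median of 1 gene of the pair gave Pearson correlations of 0.68 to 0.94. The 12 pairs of Pax2 or Pax8 with these genes gave -0.17 to 0.21, and Pax2 with Pax8 gave -0.16. With group means removed these were -0.43 to 0.30 and -0.75. All these points share an array and its scaling, and the values are descriptions. The 6 and the 2 genes were parted by values of these same arrays. Pax2 was dim, with a deviation of 0.22 between embryos and 0.30 between spots. Pax8 was read from 1 spot per array, so its reading error is not known. Whether reading error lowered the correlations of Pax2 and Pax8 was not tested. Among 19118 features ranked by their correlation with Cdh16, Epcam was at rank 10, Wnt9b at 20, Cdh1 at 56, Lhx1 at 74 and Gata3 at 162. Pax2 was at rank 4007 and Pax8 at 13814. With group means removed, the ranks were 131 for Epcam, 155 for Wnt9b, 64 for Cdh1, 213 for Lhx1 and 282 for Gata3. Those of Pax2 and Pax8 were then 6365 and 16132.

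**Figure D4:**
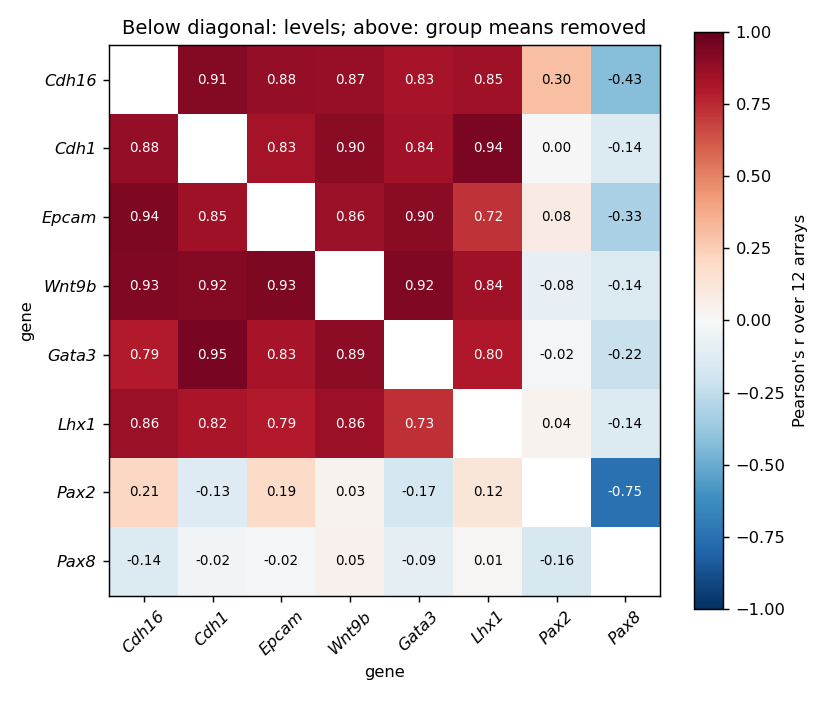
Pearson correlation of each pair of the 8 genes over the 12 arrays, below the diagonal for the levels and above it with the group means removed. Below the diagonal, Cdh16, Cdh1, Epcam, Wnt9b, Gata3 and Lhx1 form a block of 0.73 to 0.95, and Pax2 and Pax8 lie between -0.17 and 0.21 with them.

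Since these genes varied together, the 250 bases before their starts were read from the RefSeq promoter table of GRCm38.p6, which held 6 of the 8 genes. Cdh1 and Cdh16 were not matched. The 4 sequences below are those of the matched genes that varied together, written 5′ to 3′ on the strand of the gene, with the E-box CAGGTG and its reverse complement CACCTG in capitals, a sequence of the kind that Snail and Zeb repressors of epithelial genes bind.
Wnt9b, chr11:103749822-103750071, minus strand: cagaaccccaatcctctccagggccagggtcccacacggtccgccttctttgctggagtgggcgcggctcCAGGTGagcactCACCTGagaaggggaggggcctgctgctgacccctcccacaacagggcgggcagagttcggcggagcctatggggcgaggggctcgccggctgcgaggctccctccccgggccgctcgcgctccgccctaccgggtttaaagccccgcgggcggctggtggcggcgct
Epcam, chr17:87635729-87635978, plus strand: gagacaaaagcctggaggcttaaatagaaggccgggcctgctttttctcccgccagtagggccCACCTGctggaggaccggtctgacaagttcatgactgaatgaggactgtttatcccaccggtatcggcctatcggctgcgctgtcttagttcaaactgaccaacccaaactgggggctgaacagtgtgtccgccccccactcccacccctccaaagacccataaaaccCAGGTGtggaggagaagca
Gata3, chr2:9878601-9878850, minus strand: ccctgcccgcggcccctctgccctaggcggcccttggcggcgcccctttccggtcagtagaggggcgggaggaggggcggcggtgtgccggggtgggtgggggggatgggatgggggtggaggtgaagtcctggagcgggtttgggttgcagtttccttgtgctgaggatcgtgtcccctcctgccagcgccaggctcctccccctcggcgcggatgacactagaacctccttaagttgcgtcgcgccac
Lhx1, chr11:84525535-84525784, minus strand: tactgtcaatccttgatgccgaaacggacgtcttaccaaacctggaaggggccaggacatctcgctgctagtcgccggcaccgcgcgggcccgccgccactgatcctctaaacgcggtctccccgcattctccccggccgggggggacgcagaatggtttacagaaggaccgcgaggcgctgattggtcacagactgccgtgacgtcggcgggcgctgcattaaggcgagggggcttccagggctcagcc
Wnt9b held 2 matches, 180 and 168 bases before the start, and Epcam 2, at 187 and 19 bases. Gata3, Lhx1 and Pax8 held none in this window. Pax2, which did not vary with the others, held 1 match in 1 of its 3 promoter entries, 165 bases before that start. Of 32851 promoter windows of the same length in the table, 17.2% held at least 1 match and 2.06% held 2 or more. It was 1 of 12 motifs searched on both strands, picked for display after the sequences had been seen, and a match is a description of letters and not of a bound site.

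Outside the 8 genes, the 6 named genes whose levels followed the mean of the 8 most closely over the 12 arrays were Grb7 (Pearson r = 0.98), Kif12 (0.96), Trpv4 (0.96), Cldn7 (0.95), Spint1 (0.95) and Cldn3 (0.95). Cldn3 and Cldn7 encode claudins of tight junctions, Spint1 an epithelial protease inhibitor, Grb7 an adaptor of receptor tyrosine kinases, Kif12 a kinesin and Trpv4 a cation channel. In mutant males against control males Cldn7 differed by 1.84 ± 0.46 (limma adjusted p = 0.167) and Grb7 by 1.76 ± 0.36 (limma adjusted p = 0.0803). The other four differed by 1.13 to 1.55 with adjusted p-values of 0.108 to 0.343. In females the 6 changes were -0.44 to 0.05. The 6 were picked for following the 8 genes over the same arrays. Like changes were therefore built into the choice and add no separate evidence.

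A further list held 28 other duct and tubule genes, of which 22 were tested. Some genes of this and the other lists entered the test only because they were well above background on every array of a single group. They were set aside from the counts list by list that follow, after the data had been examined. None of the 8 genes was of this kind. Of the duct and tubule genes 4 were set aside, Rab25, Cldn4 and Gfra1 through mutant males and Marveld3 through mutant females. Of the 18 left, 14 were higher and 4 lower in mutant males, 8 of the higher ones without overlap against 8.5% of all features left by the same step, and the median change was 0.36. Claudin genes were among those with the smallest p, Cldn3 with a change of 1.13 and Cldn6 of 1.56, together with Tfcp2l1, a factor of epithelial maturation, at 1.16. In females 6 were higher and 12 lower, with a median of -0.07. The mean level of all 22, the 4 set aside included, correlated with that of the 8 genes at 0.96 over the 12 arrays. With group means removed the correlation was 0.91. Rab25, Cldn4 and Gfra1 entered through mutant males, so these values and the sums below rest partly on that filter. Cldn3, Cldn7 and Spint1 also belong to the list. Its summed linear level was 59.3 to 72.0 in mutant males and 51.4 to 60.4 in control males, and 49.5 to 58.9 in mutant females and 57.4 to 63.9 in control females. Such a sum weighs bright probes most. Here these were the keratin genes Krt18 and Krt8, with means of 5.15 and 3.81 in mutant males and changes of 0.22 and 0.24 in males.

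The list of Ret and Wnt9b signalling holds Wnt9b itself and shares Ret, Gfra1 and Wnt11 with the duct and tubule list. Without Gfra1 it had 13 tested genes, of which 9 were higher and 4 lower in mutant males, with a median of 0.13, and likewise 9 higher and 4 lower in mutant females, with a median of 0.17. Wnt11, a target of Ret in the ureteric bud, had a change of 0.35 in males and 0.38 in females. Of the nephrogenic and mesonephric mesenchyme 13 genes were tested. Without Hoxd11, which entered through mutant males, all 12 had positive changes in males, with a median of 0.45, for example Cited1 (0.89), Foxd1 (0.79) and Foxc2 (0.54), none of which passed the threshold. The groups of 4 of the 12 did not overlap, against 8.5% of all features left. In females 9 were higher and 3 lower, with a median of 0.29. The mean level of the 13 tested mesenchyme genes, Hoxd11 included, correlated at 0.77 with that of the 8 genes. Of 5 tested genes of the Mullerian duct 4 were higher in mutant males, with a median of 0.21, and 4 in mutant females, with a median of 0.05.

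Markers of other cell types were set beside these values, leaving out Tek, Adgre1, Gata1, Nanos3 and Six4, which entered through a single group. Of 9 endothelial genes 8 were higher in mutant males, with a median of 0.56 and Cdh5 at 1.07, but 1 was higher and 8 were lower in mutant females, with a median of -0.45. The summed level of the 10 tested endothelial genes was 12.5 to 22.0 in mutant males and 12.5 to 18.0 in control males. All 4 macrophage genes were higher in mutant males, with a median of 0.63, and the summed level of the 5 tested was 0.559 to 1.66 in mutant males and 0.400 to 1.77 in control males. All 7 erythroid genes were higher in mutant males, with a summed level over the 8 tested of 23.5 to 278.7 in mutant males and 27.8 to 209.1 in control males. Of 6 neural genes 4 were higher, all 4 without overlap against 8.5% of all features left, with a summed level of 1.46 to 1.87 in mutant males and 1.18 to 1.42 in control males. All 6 germ cell genes were higher, with a median of 0.19. Of 12 gonadal somatic genes 7 were higher and 5 lower, with a median of 0.13. Star, a cholesterol transporter of steroid-making cells, was the only one of these without overlap, lower in mutant males with a change of -0.46 (limma adjusted p = 0.302). Of all features left, 12.1% were lower in mutant males without overlap, so this gene does not set the list apart. Emx2 is on this list and on the duct and tubule list. The summed level of the 13 tested gonadal genes was 53.6 to 69.0 in mutant males and 52.4 to 60.2 in control males.

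The mean level of the 8 genes correlated over the 12 arrays at 0.69 with the endothelial list, 0.72 with the neural list, 0.50 with the erythroid list, 0.54 with the macrophage list, -0.20 with the gonadal list and 0.21 with the brightness of the array. With group means removed these were 0.78, 0.77, 0.66, 0.59, -0.54 and 0.14. All tested genes of the lists enter these correlations, those set aside included. None of the 98 genes on these lists that are not among the 8 passed the adjusted threshold (limma) in any of the 5 comparisons. The 98 include the genes set aside above. In males 16 passed an unadjusted p of 0.05, 15 higher and 1 lower, against 11.9% of all features, and 5.08% with mutants higher. In females 12 did, against 10.4% of all features. In the difference of effects 9 did, all positive, against 3.66% of all features, and 1.85% with a positive difference. In control males against control females 12 did, 6 of them lower, against 4.41% of all features that were lower. In mutant males against mutant females 15 did, 11 of them higher, against 7.13% of all features that were higher. Rab25 and Cldn4, which entered the test through mutant males, were among those higher in males and among those in the difference of effects. Rab25 was also among those higher in mutant males than in mutant females. The part of other cell types in the levels of the 8 genes was not tested.

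**Figure D5:**
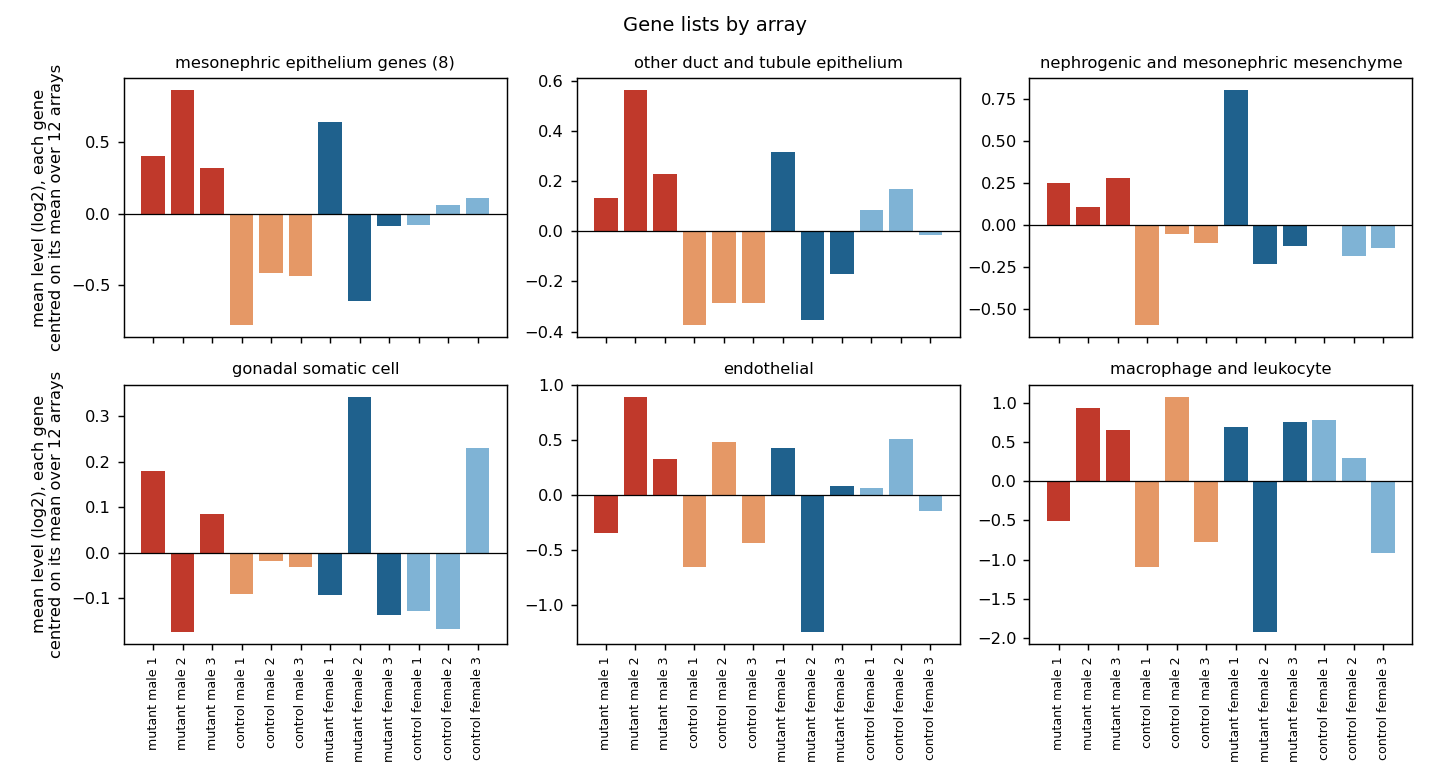
Mean level of the 8 genes and of 5 other gene lists on each of the 12 arrays, in log2 with each gene set relative to its own mean over the arrays; each bar is 1 embryo, coloured by group. The duct and tubule list follows the 8 genes (correlation 0.96, and 0.91 with group means removed). The mesenchyme list gives 0.77 and 0.76, the endothelial list 0.69 and 0.78, and the macrophage list 0.54 and 0.59. The gonadal somatic list gives -0.20 and -0.54. Each list is shown with all its tested genes, those set aside from the counts included.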

How the data were processed

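RNA of 12 single embryos was amplified and hybridised to 1-colour Agilent arrays. Per the file headers, the design was 014868 on mm9 and the deposited intensities come from Feature Extraction 10.5.1.1, a tool that the submitters' processing notes also name. The processed signal is a background-subtracted intensity on a linear scale, not scaled between arrays, per the file headers. The deposited signals were put on a log2 scale and the 75th percentile of each array's non-control spots was subtracted. Spots marked as outliers were left out, and spots of a probe were averaged. Probes were named through RefSeq. A gene was represented by its brightest probe and tested where, in some group, every array showed that probe well above background.

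Means of the 4 groups were fitted with limma 3.58.1 in R 4.3.3, with Benjamini-Hochberg adjustment at 0.05 over 19178 features. The fit was tested on simulated data. The p-values measure the spread between single embryos, and the sources used here do not name litters. The 8 genes, the other lists and several settings were chosen with earlier results of these data known. The text names the 8 genes, Kdm3a, the 6 genes most correlated with their mean and genes from the 3 with the smallest p in each other list. It also names Nr5a1, Wt1 and list genes that were set aside, shared between lists or bright in a sum. Alternatives were quantile normalization, normexp on the median signal, other filters on dim probes, the replicate number or slide as a block, array brightness, only the groups compared and leaving out each array.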

Additional observations from a re-analysis of the deposited data

How the results depend on the processing

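No gene of the 8 was called in females, in either sex comparison or in the difference of the mutant effects under any of the 22 alternative settings. In males 0 were called, against 1 with quantile normalization and 0 to 3 when single arrays were left out. Among the values of the 8 genes that did not pass, the sign turned in these cases, and the cause was not tested. With normexp, males gave -0.13 for Pax2 and -0.053 for Pax8, females -0.091 for Lhx1 and -0.034 for Cdh1, and control males against control females 0.21 for Lhx1 and 0.056 for Cdh1. With the slide as a block, males gave -0.047 for Pax2, females 0.080 for Pax2, -0.28 for Lhx1 and 0.059 for Epcam, control males against control females -0.88 for Pax8, and the difference of effects -0.13 for Pax2. With the slide as a random block, Lhx1 in females was -0.11 and Pax8 in the control sex comparison -0.28. Quantile normalization gave 0.072 for Pax2, 0.022 for Pax8 and 0.015 for Wnt9b in females, and the array brightness as a covariate 0.014 for Pax2 and -0.077 for Lhx1.

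Leaving out single arrays, the female changes ranged from -0.19 to 0.57 for Cdh1, -1.01 to 0.15 for Cdh16, -0.47 to 0.10 for Epcam, -0.51 to 0.53 for Lhx1, -0.72 to 0.44 for Wnt9b and -0.23 to 0.035 for Pax8. In males Pax2 ranged from -0.023 to 0.30 and Pax8 from -0.17 to 0.46, while Cdh1 stayed at 1.48 to 1.88 and Wnt9b at 1.67 to 2.07. Pax8 ranged from -0.068 to 0.40 in the control sex comparison and from -0.058 to 0.57 in the difference of effects. In mutant males against mutant females Lhx1 ranged from -0.028 to 1.01, Gata3 from -0.11 to 0.33 and Cdh1 from -0.062 to 0.70.

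Over all features, the 90 calls in males became 35 with no filter on dim probes, 52 with the slide as a block, 55 with it as a random block, 54 with brightness and 47 with only the groups compared, and 25 to 93 without single arrays. The 68 calls in females became 43, 13, 40, 42 and 36 in the same settings, and 31 to 135. The 34 calls in control males against control females became 13 with the slide as a block, 15 as a random block and 14 with only the groups compared, and 19 to 41. The 25 calls in mutant males against mutant females became 11 with probes well above background on all arrays, 7 with the slide as a block, 9 as a random block, 10 with brightness and 9 with only the groups compared, and 11 to 38. The 0 calls in the difference of effects became 8 with the slide as a block and 1 with brightness.

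With the replicate number as a block, the calls in mutant males against mutant females became 16, and no call among the 8 genes changed. Same-numbered samples of different groups had deviations that correlated at -0.53 to 0.43, above 0.1 for 6 of 18 pairs, so the numbers were not taken as a pairing. Setting aside list genes that entered through a single group, chosen after the data had been examined, left every list median within 1 SD of its spread over arrays. Testing only probes well above background on all arrays gave no value for Cdh1, Lhx1 and Pax2, and fitting only the groups compared gave none for the difference of effects. Pax2, Cdh1 and Lhx1 lie near background in some arrays, which limits their changes.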
